A study of Mus musculus with 12 samples.

Results

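The genes described here are those that encode the subunits, activators, inhibitor and assembly factors of the mouse proteasome. They were chosen by symbol, as rows of the count table whose symbol starts with Psma to Psmg followed by a digit and whose counts added up to 50 or more over all libraries. Of 37991 rows in the table, 55 matched the symbol pattern and 47 reached that total. All 47 also passed the filter on low counts that left 15961 rows for testing. Psmc3ip, a meiotic recombination factor whose symbol matches the pattern, and the pseudogene Psme2b-ps are among the 47 but encode no subunit. Psme2b-ps lay just inside the limit with a total of 93 counts, and the testis subunit Psma8 lay just outside it with 23, as did the thymus subunit Psmb11 with 16.

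RNA was sequenced from islets of male C57BL/6 mice at 2 and 12 weeks of age (2w and 12w), from Tg7 mice and from their wild-type littermates (Wt). Tg7 mice overexpress the microRNA miR-7a2 in β-cells only, so the other islet cells of the same library carry the transgene without expressing it, and the labels and methods do not name the promoter that drives it. Each of the 4 groups held 3 libraries, and each library was a pool of islets from at least 3 animals. The 12w Wt libraries are numbered 1, 2 and 4. Because animals were pooled, the p-values measure the spread between pools.

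The proteasome degrades proteins tagged with ubiquitin. Its core is a barrel of outer α-rings and inner β-rings, and the β subunits Psmb5, Psmb6 and Psmb7 carry the cutting sites, while a regulatory cap made of Psmc ATPases and Psmd subunits recognises, unfolds and feeds in the substrate. In cells exposed to interferon the cutting subunits are exchanged in newly built cores for Psmb8 (in place of Psmb5), Psmb9 (in place of Psmb6) and Psmb10 (in place of Psmb7), which gives the immunoproteasome and favours peptides that fit MHC class I.

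The transgene's mature product in RefSeq, miR-7a-5p, is shown because its seed (bases 2 to 8, in capitals) was searched for in the 3′ UTRs of the proteasome genes. Below it stand the 4 proteasome genes with a match of 8 bases, that is the reverse complement of the seed followed by an A, each in a window of 28 bases from mm9 with the match in capitals.
miR-7a-5p: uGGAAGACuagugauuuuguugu
Psme3: attcctctccGTCTTCCAatcccaaatc
Psmf1: catgttgccaGTCTTCCAcgctcctttt
Psmc6: atgtacttgtGTCTTCCAagaaattctc
Psmd10: tgtcttgagcGTCTTCCAtgcacctgct
The windows lie at chr11:101184514-101184541 on the plus strand (Psme3), chr2:151543982-151544009 on the minus strand (Psmf1), chr14:45968933-45968960 on the plus strand (Psmc6) and chrX:137483435-137483462 on the minus strand (Psmd10). Psma3 and Psmd5 held the 7 bases GTCTTCC without the A. A match of at least 7 bases was present in 6 of 47 proteasome genes (12.8%) and in 14.4% of the 14406 tested genes with an annotated 3′ UTR, and an 8-base match in 4 of 47 (8.51%) against 4.35%. Of the 4 genes with 8 bases, Psme3 and Psmf1 were lower in Tg7 islets at both ages by the test given below, whereas Psmc6 had log2 fold changes of 0.02 at 2w and −0.15 at 12w and Psmd10 of 0.31 and 0.18, none of which passed the test. The match is a description of the sequence and was not tested as a site.

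The libraries held 11610697 to 17515758 counts. The insulin genes took between 1.84% and 29.99% of a library, least in 2w Tg7 and most in 12w Wt islets, and TMM scaling factors ran from 0.684 to 1.19. Levels are given below as CPM, each gene's counts relative to its library's total after this scaling. The summed CPM of 8 β-cell marker genes, which include the insulin genes, ran from 109529 to 178846 in the Wt and from 27281 to 52275 in the Tg7 libraries at 2w, and from 195701 to 479400 and from 100026 to 105367 at 12w. In such bulk libraries, fewer β-cells and less of a transcript per β-cell cannot be told apart. Stellate and fibroblast markers (8 genes) summed to 226 to 328, 415 to 560, 37.1 to 44.7 and 268 to 303 CPM in these groups in the same order, endothelial markers (10 genes) to 1129 to 1411, 1274 to 1367, 486 to 605 and 985 to 1032, and acinar markers (10 genes) to 17.8 to 19.4, 25.7 to 31.2, 20.9 to 27.1 and 16.3 to 18.1.

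Within a library, the levels of proteasome genes can be compared with each other only per length. They are given as CPM per kilobase of annotated exon, in 12w Wt islets, as mean ± SD of n = 3. The structural core subunits Psmb4 (108 ± 9.27) and Psmb1 (106 ± 10.1) stood highest and did not differ beyond their spread. With the longest transcript, Psmb4 came to 126 and Psmb1 stayed at 106, so their order depends on the length used. Psmb3 was the lowest of the structural β subunits at 29.3 ± 7.90. In the α-ring, which gates the barrel, the range ran from Psma4 at 35.2 ± 3.65 to Psma6 at 77.0 ± 10.7 (with the longest transcript, Psma2 was lowest at 37.6 and Psma4 stood at 71.5). Of the cutting subunits, Psmb7 stood at 76.2 ± 3.22, Psmb5 at 57.7 ± 11.7 and Psmb6 at 46.0 ± 8.04. With the longest transcript in place of all exons, Psmb6 came to 89.1, so that the order among these 3 depends on the length used.

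The cap and the accessory factors spread more widely. Among the ATPases the range was from Psmc2 at 23.9 ± 2.54 to Psmc1 at 79.1 ± 6.36, and among the other cap subunits from Psmd14, the deubiquitinase that removes the ubiquitin chain, at 14.3 ± 1.68 to Psmd7, its partner in the lid of the cap, at 62.6 ± 3.05. With the longest transcript Psmd2 was the highest of the latter at 76.8, and Psmd14 the lowest at 26.1. Assembly factors were low, with Psmd9 at 4.10 ± 0.392 and Psmd5 at 11.3 ± 1.54 for the cap, and Psmg3 at 12.6 ± 3.53 and Psmg4 at 18.2 ± 4.76 for the core (with the longest transcript, Psmg1 at 18.3 was level with Psmg4). The activators, which dock on the barrel in place of the cap, ran from Psme3 at 26.0 ± 3.62 to Psme2 at 39.9 ± 7.63. The inhibitor Psmf1 stood at 9.22 ± 1.06. The immunoproteasome subunits were below the subunits they replace, with Psmb10 at 25.1 ± 7.01 and Psmb8 at 7.76 ± 0.809 (11.1 with the longest transcript).

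**Figure D1:**
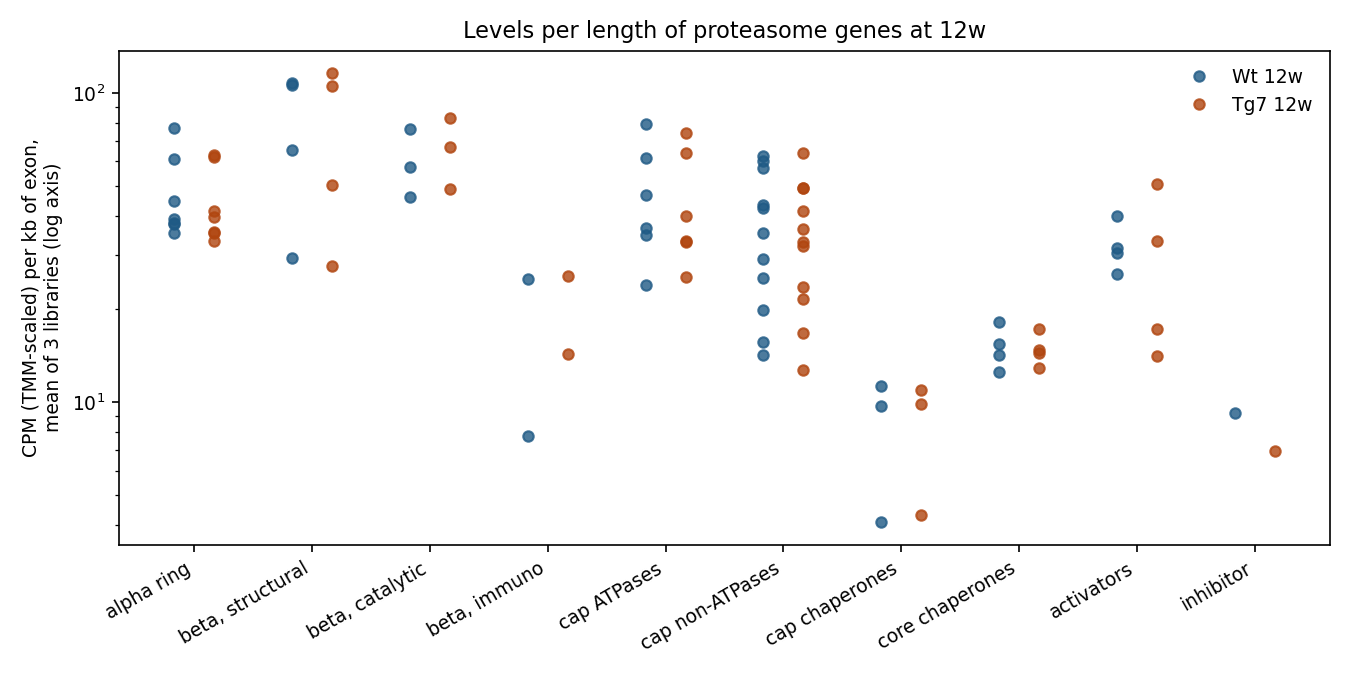
Level of each proteasome gene at 12w, as the mean of 3 libraries in CPM per kilobase of exon on a log axis, by role in the complex and by group (blue, Wt, and orange, Tg7). Psmb8, the lower immunoproteasome point, moves from 7.76 in Wt to 14.3 in Tg7, and the lower 2 activator points in Tg7 are Psme3 and Psme4.

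Psmb9 is treated as not measured. The annotation of mm9 lists it under 2 identifiers on chromosome 17 that share 99.97% and 99.67% of their exon bases on the same strand, and both rows held 0 counts in every library. There were 5 pairs of protein-coding genes under 1 name that shared at least 95% of their exon bases. They were Psmb9 itself, Alx1, Gm1965, Nrap and Tnnc1. Both rows were at 0 in all 5, against 18.5% of 22337 protein-coding genes at 0. Whether the other pairs are expressed in islets was not examined, and why Psmb9 had no counts was not tested. No level is given for Psmb9, and the comparison of immunoproteasome with constitutive subunits rests on Psmb8 with Psmb5 and on Psmb10 with Psmb7.

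Psmb8 was higher in Tg7 islets. At 12w (chr17:34334666-34338399 on the plus strand, mm9) it stood at 20.7, 23.7 and 19.3 CPM in the Wt libraries and at 38.0, 42.8 and 36.8 CPM in the Tg7 libraries. All Tg7 libraries lay above all Wt libraries. The log2 fold change was 0.89 (SE 0.19, 1.85-fold), with an adjusted p of 0.00397 by edgeR's quasi-likelihood test, adjusted over all tested genes by Benjamini and Hochberg's method. This test stands behind every adjusted p of a gene given here. This call held in 12 of 12 fits without 1 library and in 9 of 9 other alternatives.

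At 2w, Psmb8 stood at 16.49, 17.16 and 15.003 CPM in Wt and at 29.0, 28.3 and 16.7 CPM in Tg7 libraries. Tg7 replicate 3 lay within the Wt range, while the other two lay above it. The log2 fold change of 0.60 (SE 0.19) did not pass the test (adjusted p = 0.0548). Without Tg7 2w replicate 3 it was 0.81 with an adjusted p of 0.00639, and DESeq2 on all libraries gave 0.61 with an adjusted p of 0.0295. Psmb8 at 2w passed in 2 of 12 fits without 1 library, those without Tg7 2w replicate 3 or Wt 12w replicate 4. It passed in 5 of 9 other alternatives. Over the fits without 1 library its log2 fold change ran from 0.47 to 0.81.

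Psmb10 did not pass the test at either age. At 2w it stood at 26.3, 24.6 and 25.7 CPM in Wt and at 35.3, 31.4 and 31.8 CPM in Tg7 libraries, so that the groups did not overlap (log2 fold change 0.36, SE 0.16, adjusted p = 0.174). At 12w it stood at 26.6, 42.2 and 26.9 CPM in Wt and at 33.4, 33.9 and 30.4 CPM in Tg7 libraries (log2 fold change 0.03, SE 0.16, adjusted p = 0.924). Wt replicate 2 lay above all Tg7 libraries and the other Wt libraries below them.

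The constitutive cutting subunits did not pass the test either. Psmb5 had log2 fold changes of −0.12 (SE 0.13, adjusted p = 0.614) at 2w and 0.21 (SE 0.13, adjusted p = 0.286) at 12w. Psmb6 had −0.13 (SE 0.12) and 0.08 (SE 0.12), and Psmb7 had 0.02 (SE 0.10) and 0.13 (SE 0.10). Of the exon bases of Psmb5, 11.8% are shared on the same strand with the microRNA gene Mir686, so reads there could be left out or split. Psmb8 shares 6.8% of its exon bases with Gm20496 on the opposite strand, which matters if reads were counted without regard to strand.

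**Figure D2:**
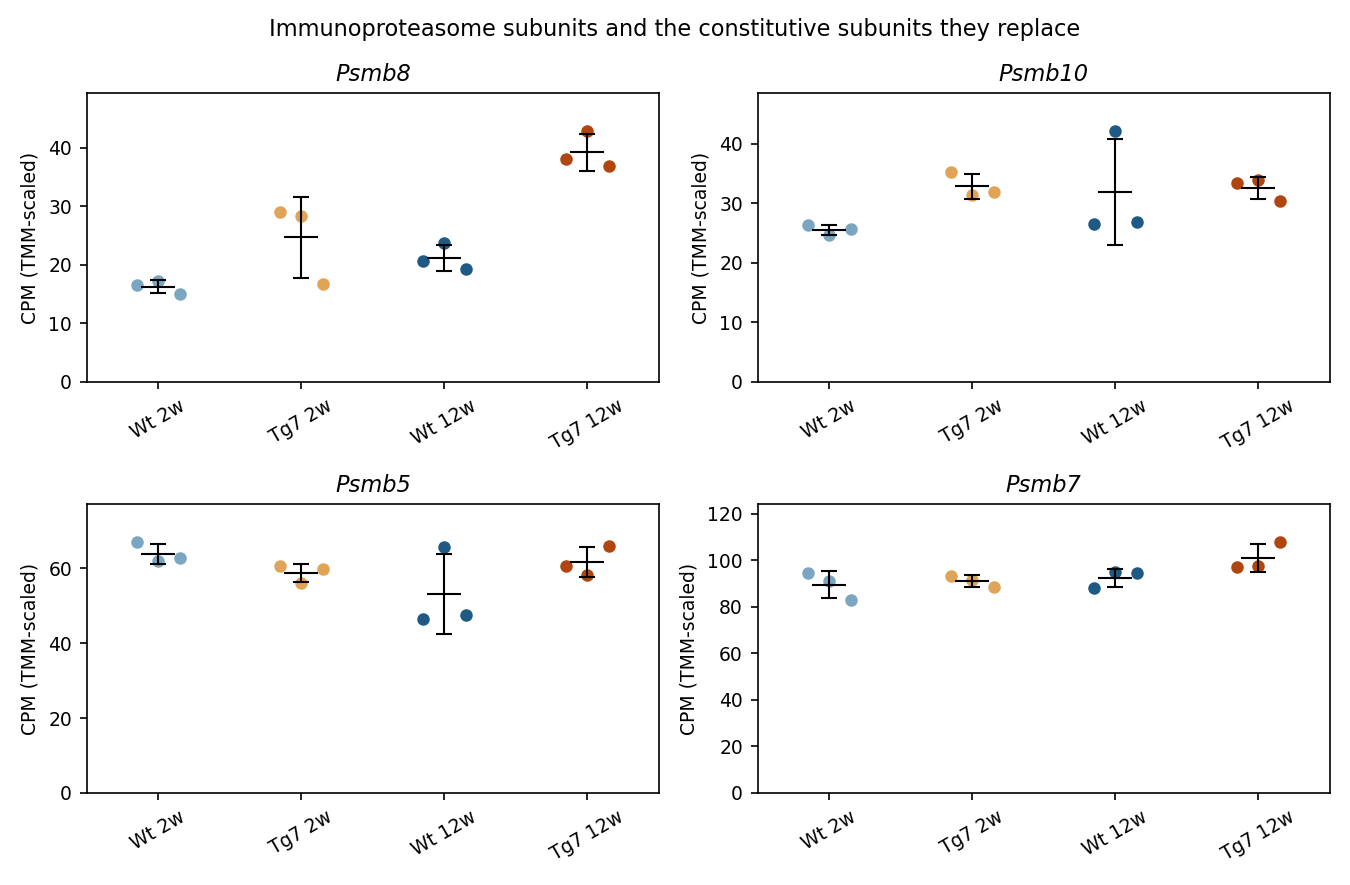
TMM-scaled CPM of the immunoproteasome subunits Psmb8 and Psmb10 (upper panels) and of Psmb5 and Psmb7, which they replace (lower panels), in every library (points), with the mean and SD of n = 3. All 12w Tg7 points of Psmb8 (36.8 to 42.8 CPM) lie above all 12w Wt points (19.3 to 23.7 CPM), and 1 of the 3 2w Tg7 points lies among the Wt points.

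The ratio of the counts of Psmb8 and Psmb5 within a library does not depend on how that library is scaled. At 2w the log2 ratio was −2.02, −1.85 and −2.06 in Wt and −1.06, −0.99 and −1.84 in Tg7 libraries, with means of −1.98 ± 0.11 and −1.29 ± 0.47 (SD, n = 3). At 12w it was −1.164, −1.471 and −1.296 in Wt and −0.68, −0.44 and −0.84 in Tg7 libraries, with means of −1.31 ± 0.15 and −0.65 ± 0.20. All Tg7 libraries lay above all Wt libraries of their age, although Tg7 2w replicate 3 exceeded the highest Wt value only narrowly. The mean ratio was 1.61-fold higher in Tg7 at 2w and 1.58-fold higher at 12w, each with a two-sided exact permutation p of 0.1, the smallest that 3 against 3 libraries allow. With labels permuted within each age, the pooled log2 difference of 0.67 had an exact p of 0.005, the smallest those permutations can give, or 0.01 after Benjamini-Hochberg adjustment over the 2 ratios computed.

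For Psmb10 over Psmb7, the log2 ratio was −1.81 ± 0.11 in Wt and −1.47 ± 0.07 in Tg7 at 2w, and −1.57 ± 0.35 and −1.63 ± 0.17 at 12w. The groups did not overlap at 2w (exact permutation p = 0.1) and overlapped at 12w (exact permutation p = 0.8). Pooled over the ages the difference was 0.14 (exact permutation p = 0.325, adjusted p = 0.325), and without Wt 12w replicate 2 it was 0.24 (exact permutation p = 0.025).

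Per length of exon, Psmb8 made up 7.89% ± 0.583 of Psmb8 and Psmb5 together in 2w Wt islets, 12.4% ± 3.25 in 2w Tg7, 12.0% ± 1.12 in 12w Wt and 17.7% ± 2.04 in 12w Tg7 (SD, n = 3). Psmb10 made up 21.4% ± 1.24, 25.6% ± 0.916, 24.5% ± 4.59 and 23.6% ± 2.07 of Psmb10 and Psmb7. In all groups the constitutive subunit was the more abundant transcript of each pair.

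**Figure D3:**
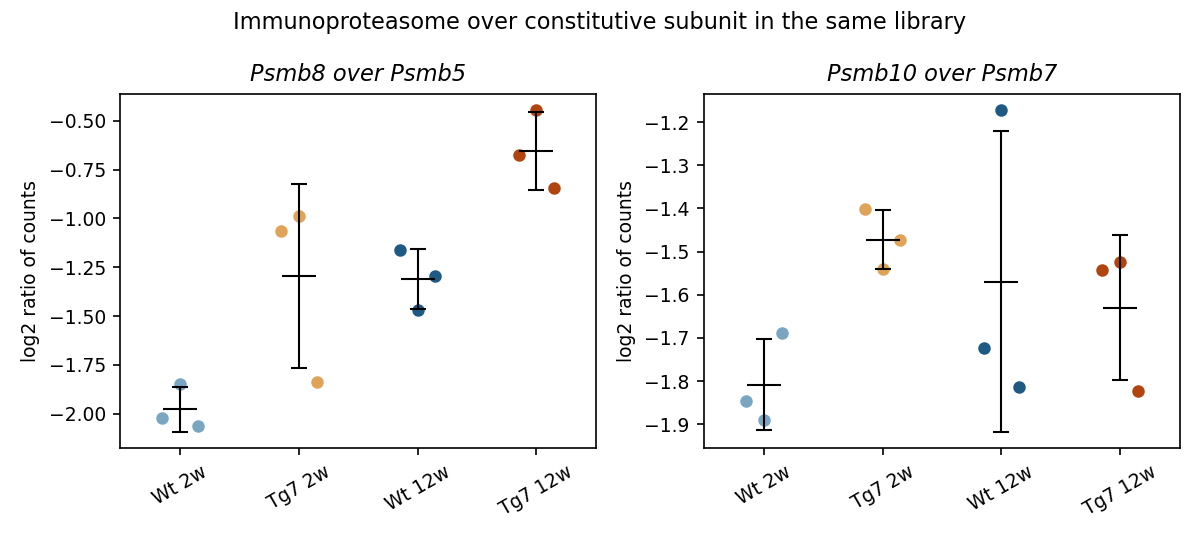
Log2 ratio of counts of each immunoproteasome subunit over the subunit it replaces, in every library (points), with the mean and SD of n = 3 per group. For Psmb8 over Psmb5 the Tg7 means lie above the Wt means of the same age, at −1.29 against −1.98 and at −0.65 against −1.31, whereas for Psmb10 over Psmb7 they do so at 2w only.

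Leukocytes carry immunoproteasomes, so their markers are given beside Psmb8. The summed CPM of 15 leukocyte markers was 50.5 to 71.9 in 2w Wt and 206, 66.5 and 61.5 in 2w Tg7 replicates 1, 2 and 3. Of the 12 tested markers, 8 were higher and 4 lower at 2w, with a median log2 fold change of 1.03, and Lyz2 passed the test, upward. At 12w the sum was 106 to 118 in Wt and 89.2 to 92.5 in Tg7, with 7 markers higher and 5 lower, a median log2 fold change of 0.09, and Csf1r passing the test, downward. The T-cell marker Cd3e was at 0 in every Wt library, at 4.06, 0 and 0.447 CPM in the 2w Tg7 and at 0.226, 0 and 0.0572 CPM in the 12w Tg7 libraries. The endothelial and stellate sums, given above, were higher in 12w Tg7 than in 12w Wt. The part of leukocytes, endothelial and stellate cells in the level of Psmb8 was not tested.

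Of the 47 proteasome genes, 5 fell and none rose in Tg7 islets at 2w (at an unadjusted p under 0.05, 2 were higher and 11 lower). Over all tested genes, 4.55% fell and 6.07% rose. At 12w, 3 fell and 1 rose, against 11.2% and 12.5% of all tested genes. The share of members that fell was thus 10.6% at 2w and 6.38% at 12w, above and below the background. The median log2 fold change of the 47 was −0.13 at 2w (all tested genes 0.03), with 15 higher and 32 lower, and 0.01 at 12w (all tested genes −0.01), with 24 higher and 23 lower. In 18 members (38.3%) all Tg7 libraries lay below all Wt libraries at 2w, against 18.1% of all tested genes. In 3 (6.38%), namely Psme1, Psmb10 and Psmd10, they lay above, against 17.8%. At 12w these counts were 9 (19.1%), against 16.3%, and 3 (6.38%, Psme2, Psmb7 and Psmb8), against 20.7%.

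The number of falling genes at 2w depended on single libraries. It was 2 (Psme3 and Psmd12) without any 1 of the Wt 2w libraries, Tg7 2w replicates 2 and 3 or the Tg7 12w libraries, fits in which 2.29% to 3.62% of all tested genes fell. Without Wt 12w replicate 4 it was 10, against 8.86% of all tested genes. At 12w, without Wt 12w replicate 4, 6 fell, against 10.7%, and without Wt 12w replicate 2, 3 rose (Psmb8 with Psmb5 and Psme2), against 12.1%.

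**Figure D4:**
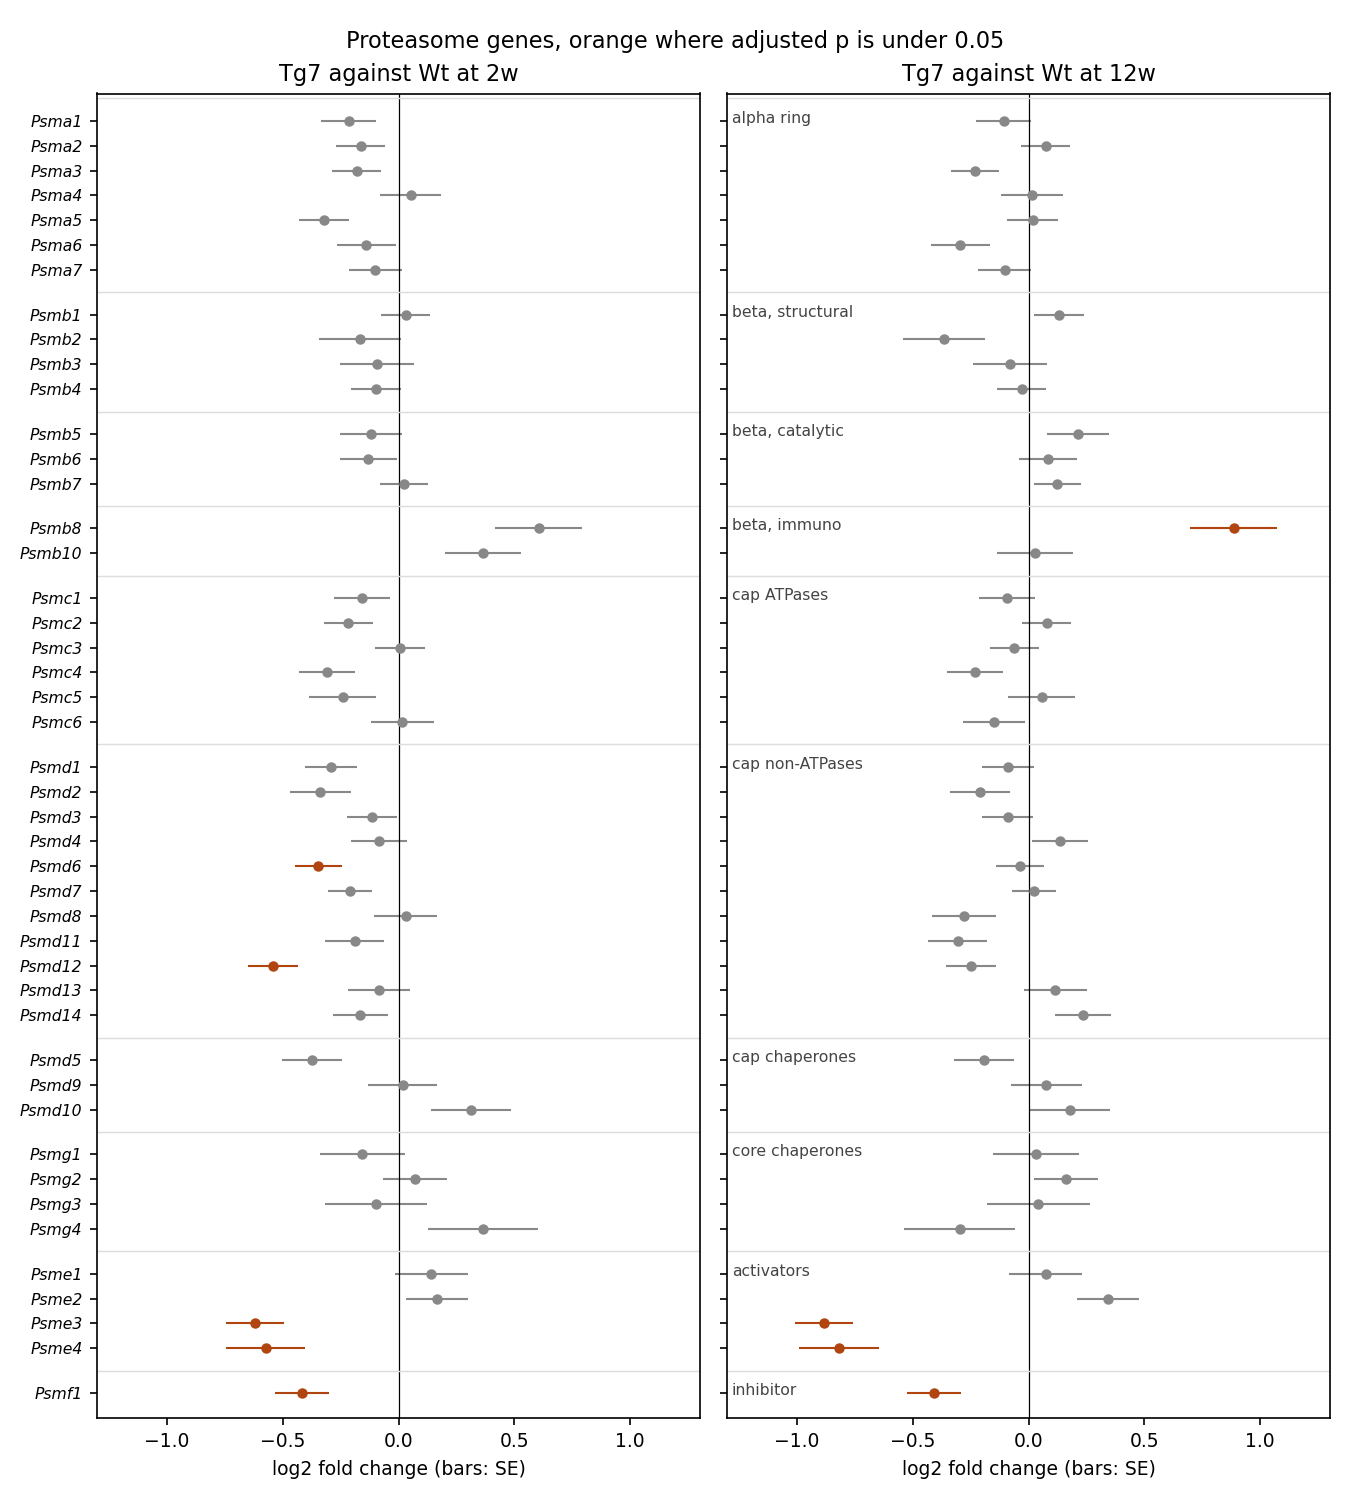
Log2 fold change of Tg7 against Wt (points, with bars of 1 SE) for each proteasome gene by role, at 2w (left) and 12w (right), with genes at an adjusted p under 0.05 in orange. The 31 constitutive core and cap subunits lie between −0.54 and 0.05 at 2w and between −0.37 and 0.23 at 12w, while Psme3, Psme4 and Psmf1 are orange on the left of both panels and Psmb8 is orange on the right at 12w.

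The 31 constitutive core and cap subunits showed small differences, mostly downward at 2w. At 2w, 25 of the 31 had negative and 6 positive log2 fold changes, with a median of −0.16 (all tested genes 0.03). The range was from −0.54 (Psmd12) to 0.05 (Psma4), and 2 fell, against 4.55% of all tested genes. At 12w, 18 were negative and 13 positive, with a median of −0.06 (all tested genes −0.01). The range was from −0.37 (Psmb2) to 0.23 (Psmd14). None passed the test at 12w, when 11.2% of all tested genes fell and 12.5% rose. The summed CPM of the 31 was 3035 to 3087 in 2w Wt, 2609 to 2796 in 2w Tg7, 3147 to 3204 in 12w Wt and 2994 to 3079 in 12w Tg7 libraries. In these TMM-scaled values, the Tg7 sums lay below the Wt sums at both ages, by a wider margin at 2w. The direction depends on the scaling. With counts scaled by library size alone, the median log2 fold change over all proteasome genes was 0.04 at 2w and 0.46 at 12w. Over all tested genes it was then 0.19 and 0.43.

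By role, the 7 α-ring subunits had a median of −0.16 at 2w and −0.10 at 12w, the 6 ATPases of −0.19 and −0.08, and the 11 other cap subunits of −0.19 and −0.09. The 4 structural β subunits had −0.10 and −0.05, and the 3 constitutive cutting subunits −0.12 and 0.13, with all 3 positive at 12w. None of the 3 cap assembly factors and 4 core assembly factors passed the test. Psmd5, a chaperone of the cap's ATPases, had the lowest log2 fold change of the assembly factors at 2w (−0.37, adjusted p = 0.0807). Psmc3ip and Psme2b-ps did not pass the test either (adjusted p at 12w 0.733 and 0.513).

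Psmd12, a lid subunit of the cap (chr11:107340798-107365676 on the plus strand, mm9), stood at 108, 124 and 123 CPM in 2w Wt and at 84.998, 73.0 and 85.6 CPM in 2w Tg7 libraries. The groups were well apart, and it fell by 0.54 on the log2 scale (SE 0.11, 0.687-fold, adjusted p = 0.00584). This call held in 12 of 12 fits without 1 library and in 8 of 9 other alternatives. It was lost when counts were scaled by library size alone. At 12w Psmd12 stood at 116, 114 and 113 CPM in Wt and at 93.2, 97.3 and 98.7 CPM in Tg7 libraries. The groups were again apart, but the log2 fold change of −0.25 did not pass the test (SE 0.11, adjusted p = 0.112).

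Psmd6, another lid subunit, stood at 89.7, 90.5 and 94.9 CPM in 2w Wt and at 74.2, 72.5 and 69.6 CPM in 2w Tg7 libraries. It fell by 0.35 on the log2 scale (SE 0.10, adjusted p = 0.0447), a call that held in 5 of 9 other alternatives and, of the fits without 1 library, only in the 3 that left out a Wt 12w library. At 12w the groups overlapped, with 91.5 to 108 CPM in Wt and 93.2 to 99.0 CPM in Tg7 libraries (log2 fold change −0.04, adjusted p = 0.843).

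The activators parted into those that were lower in Tg7 islets, Psme3 and Psme4, and those that did not pass the test, Psme1 and Psme2. Psme3 forms a ring of its own that activates the core in the nucleus without ubiquitin, and Psme4 is a single large protein that does so as well. Psme1 and Psme2 together form the interferon-induced activator.

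Psme3 (chr11:101177527-101184851 on the plus strand, mm9) stood at 69.5, 68.1 and 70.1 CPM in 2w Wt and at 47.5, 39.8 and 47.8 CPM in 2w Tg7 libraries. At 12w it stood at 73.1, 68.4 and 88.8 CPM in Wt and at 44.4, 41.4 and 39.2 CPM in Tg7 libraries. At both ages every Tg7 library was far below every Wt library. It fell by 0.62 (SE 0.12, 0.651-fold, adjusted p = 0.00612) at 2w and by 0.88 (SE 0.12, 0.542-fold, adjusted p = 0.00021) at 12w on the log2 scale. Both calls held in 12 of 12 fits without 1 library and were lost when counts were scaled by library size alone.

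Psme4 (chr11:30671726-30780361 on the plus strand, mm9) stood at 199, 213 and 214 CPM in 2w Wt and at 155, 127 and 139 CPM in 2w Tg7 libraries. At 12w it stood at 238, 188 and 340 CPM in Wt and at 146, 141 and 147 CPM in Tg7 libraries. The groups did not overlap at either age, but the 12w Wt libraries were spread widely, with replicate 4 the highest. It fell by 0.57 (SE 0.17, 0.672-fold, adjusted p = 0.0473) at 2w and by 0.82 (SE 0.17, 0.567-fold, adjusted p = 0.00372) at 12w on the log2 scale. At 2w the call held in 6 of 9 other alternatives and in 4 of 12 fits without 1 library, those without Tg7 2w replicate 1 or a Wt 12w library. At 12w it held in all 12, with −0.55 without Wt 12w replicate 4, and in 8 of 9 other alternatives. The 12w call was lost when counts were scaled by library size alone (log2 fold change −0.39, adjusted p = 0.173).

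At 2w, Psme1 ranged over 66.4 to 71.7 CPM in the Wt and over 73.3 to 79.2 CPM in the Tg7 libraries, and at 12w over 49.2 to 83.7 and over 71.6 to 75.3 CPM. Its log2 fold changes were 0.14 (SE 0.16, adjusted p = 0.607) and 0.07 (SE 0.16, adjusted p = 0.786). Psme2 stood at 68.3, 84.9 and 58.2 CPM in 12w Wt and at 88.3, 90.4 and 89.5 CPM in 12w Tg7 libraries. The groups did not overlap at 12w, and the log2 fold change was 0.34 (SE 0.13, adjusted p = 0.0806), after 0.17 (SE 0.13, adjusted p = 0.459) at 2w. Counts of Psme2 are uncertain where reads could also match its near copy Psme2b-ps.

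Psmf1, the proteasome inhibitor (chr2:151541548-151569922 on the minus strand, mm9), stood at 47.7, 54.2 and 50.4 CPM in 2w Wt and at 40.5, 38.6 and 35.0 CPM in 2w Tg7 libraries. At 12w it stood at 55.7, 55.2 and 67.3 CPM in Wt and at 43.5, 45.9 and 45.1 CPM in Tg7 libraries. The groups did not overlap at either age. It fell by 0.42 (SE 0.12, 0.749-fold, adjusted p = 0.0381) at 2w and by 0.41 (SE 0.12, 0.754-fold, adjusted p = 0.0227) at 12w on the log2 scale. The 2w call held in 6 of 9 other alternatives and in 4 of 12 fits without 1 library, those without Tg7 2w replicate 1 or a Wt 12w library. The 12w call held in 4 of 9 other alternatives, with a log2 fold change of 0.03 when scaled by library size alone, and in 8 of 12 fits without 1 library, being lost without Wt 12w replicate 4 or any Tg7 12w library.

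**Figure D5:**
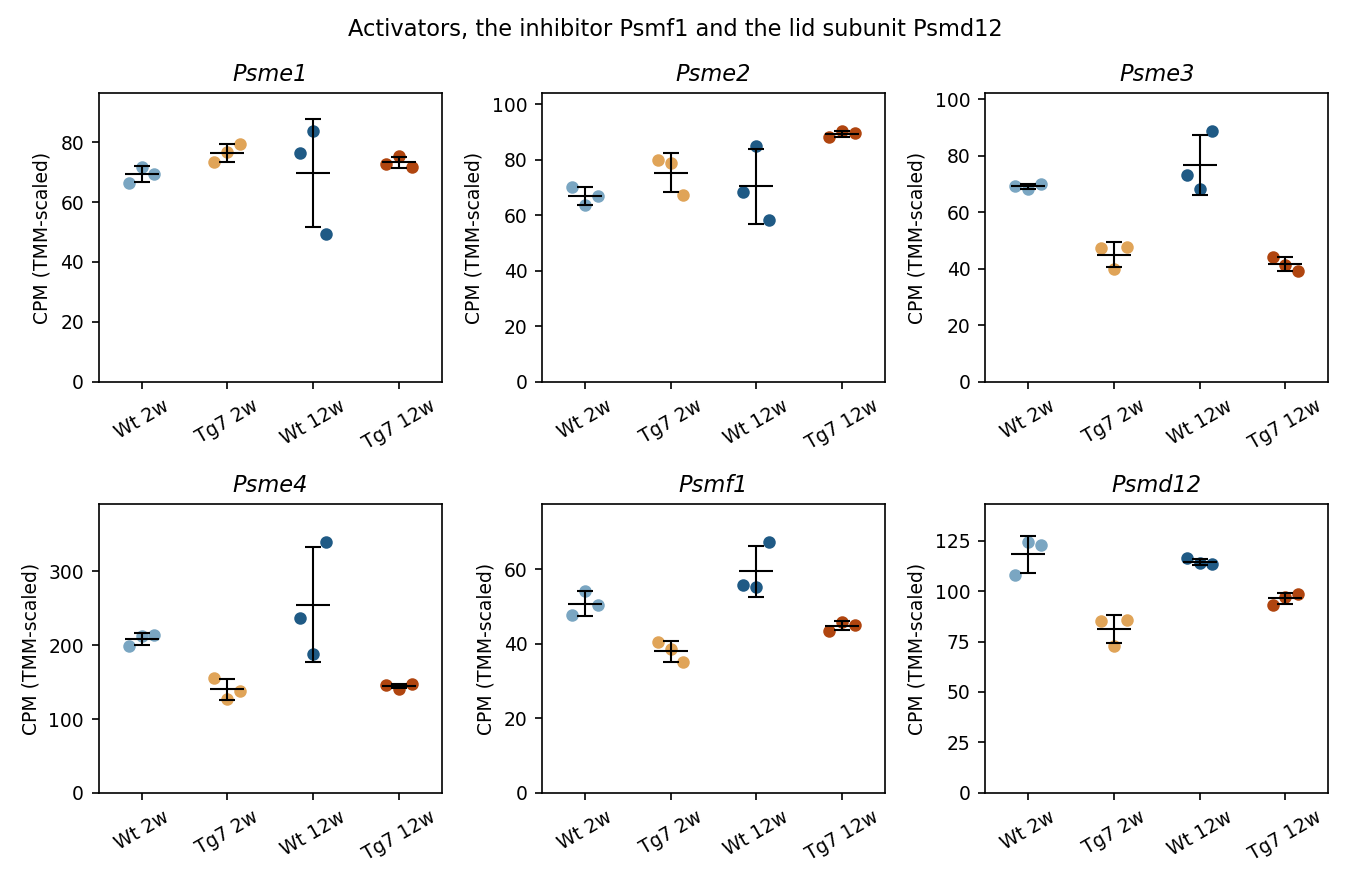
TMM-scaled CPM of the activators Psme1 to Psme4, the inhibitor Psmf1 and the lid subunit Psmd12 in every library (points), with the mean and SD of n = 3. Tg7 points of Psme3, Psme4 and Psmf1 lie below Wt points at both ages, for Psme3 at 39.8 to 47.8 against 68.1 to 70.1 CPM at 2w and 39.2 to 44.4 against 68.4 to 88.8 CPM at 12w.

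The change from Wt to Tg7 was then compared between the ages in the same fit. No proteasome gene passed the test of the difference between the 12w and the 2w effect (edgeR, 2 at an unadjusted p under 0.05, and 0 by DESeq2), against 1.18% of all tested genes. For Psmb8 the difference of the log2 fold changes was 0.28 (SE 0.26, adjusted p = 0.694), for Psme3 −0.26 (SE 0.17, adjusted p = 0.535), for Psme4 −0.25 (SE 0.24, adjusted p = 0.714), for Psmf1 0.01 (SE 0.17, adjusted p = 0.989) and for Psmd12 0.29 (SE 0.15, adjusted p = 0.405). The effects were therefore not shown to differ between the ages for any of them.

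Age was compared within each genotype. None of the 47 passed the test between 12w and 2w Wt islets (edgeR, 2 at an unadjusted p under 0.05, Psma3 and Psmg4, and 1 by DESeq2), against 15.8% of all tested genes. In Tg7 islets 6 rose (12.8%), against 7.02% of all tested genes, and none fell. This contrast shares its libraries with the contrasts against Wt.

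The largest of the 6 was Psmb8, which rose by 0.67 on the log2 scale (SE 0.18, adjusted p = 0.0288), from 29.0, 28.3 and 16.7 to 38.0, 42.8 and 36.8 CPM. Next came Psmd6, from 74.2, 72.5 and 69.6 to 96.3, 99.0 and 93.2 CPM (log2 fold change 0.42, SE 0.10, adjusted p = 0.0157), and Psmd14, from 36.7, 33.6 and 37.4 to 50.1, 44.7 and 47.3 CPM (log2 fold change 0.40, SE 0.12, adjusted p = 0.0406). In these 3 genes all 12w Tg7 libraries lay above all 2w Tg7 libraries. They were picked for their large change in this same contrast, and the share of all tested genes so separated was not computed. The other three, Psmd7, Psma5 and Psma2, had log2 fold changes of 0.38, 0.36 and 0.35. Without Tg7 12w replicate 1, Tg7 12w replicate 2 or Tg7 2w replicate 3 the count was 0. It was 1 without Tg7 12w replicate 3, 2 without Tg7 2w replicate 1 or 2, and 3 without any 1 of the Wt 2w libraries, fits in which 3.81% to 6.1% of all tested genes rose. Without Tg7 2w replicate 3 the log2 fold change of Psmb8 was 0.46 (adjusted p = 0.079). Of the exon bases of Psmd14, 12.0% are shared on the same strand with a second Psmd14 row at 0 counts.

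Proteins that work with the proteasome but are not part of the symbol pattern were read as a list of 27 genes, of which 26 were tested. None rose and 2 fell at 2w, when 4.55% of all tested genes fell, and none rose and 5 fell at 12w, when 11.2% did. The median log2 fold change was −0.19 at 2w, with 20 of 26 negative, and −0.14 at 12w, with 23 of 26 negative. Zfand2a, an arsenite-inducible zinc finger protein that binds the proteasome, fell from 38.8 ± 2.46 to 19.2 ± 3.12 CPM at 2w (log2 fold change −1.01, SE 0.17, adjusted p = 0.0023) and from 38.6 ± 7.73 to 20.6 ± 3.13 CPM at 12w (log2 fold change −0.91, SE 0.17, adjusted p = 0.00198). Nploc4, a cofactor of the unfoldase Vcp, fell by 0.46 (adjusted p = 0.0483) at 2w and by 0.66 (adjusted p = 0.00393) at 12w on the log2 scale. Its 2w call held in 3 of 9 other alternatives and in 5 of 12 fits without 1 library, those without Wt 2w replicate 1, Tg7 2w replicate 1 or a Wt 12w library. The 12w call for Nploc4 held in 7 of 9 other alternatives, being lost with library size alone and with the replicate block. For Zfand2a the 12w call held in 8 of 9 and was lost with library size alone. Both 12w calls held in 12 of 12 fits without 1 library.

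Ddi2, the protease that activates the proteasome's own transcription factor Nfe2l1, fell by 0.66 on the log2 scale at 12w (SE 0.14, adjusted p = 0.00396), and 18.3% of its exon bases are shared with Rsc1a1. The call for Ddi2 held in 12 of 12 fits without 1 library and in 7 of 9 other alternatives. It was lost with library size alone and with the replicate block. Nfe2l1 itself did not pass the test (log2 fold change −0.19, adjusted p = 0.659, at 12w). The ubiquitin shuttle Ubqln1 (log2 fold change −0.39, adjusted p = 0.0431) and the proteasome adaptor AI314180 (−0.44, adjusted p = 0.0448) fell at 12w as well, and the call for Ubqln1 held in 4 of 9 other alternatives and in 2 of 12 fits without 1 library, those without Wt 12w replicate 1 or 2. At 2w Ubqln4, a further shuttle, had −0.36 (adjusted p = 0.0861) and Uba1, which activates ubiquitin, −0.30 (adjusted p = 0.149).

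Genes of antigen presentation, which use the peptides that the immunoproteasome cuts, were read as a list of 9. At 2w 3 rose and none fell, when 6.07% of all tested genes rose, and at 12w 4 rose and none fell, when 12.5% rose. The log2 fold changes of 7 were positive and 2 negative at 2w (median 0.19), and of 8 positive and 1 negative at 12w (median 0.41). The summed CPM of the list overlapped at 2w, with 1075 to 1165 in Wt and 1023 to 1234 in Tg7 libraries. At 12w the sums were 1224 to 1433 and 1511 to 1582 CPM. The peptide transporter subunit Tap1 rose from 15.5 ± 0.480 to 23.5 ± 5.06 CPM at 2w (log2 fold change 0.60, adjusted p = 0.041) and from 17.1 ± 2.95 to 31.4 ± 0.886 CPM at 12w (0.87, adjusted p = 0.00267). Its 2w call was lost with the replicate block and held in 4 of 12 fits without 1 library, those without Tg7 2w replicate 3 or a Wt 12w library. Its partner Tap2 rose by 1.17 on the log2 scale at 12w (adjusted p = 0.0117) and had 0.53 (adjusted p = 0.269) at 2w. Tap2 shares 18.5% of its exon bases with Gm15821 and Gm20496 on the opposite strand. Nlrc5, the transactivator of MHC class I genes, had log2 fold changes of 1.84 (adjusted p = 0.0408) and 1.91 (adjusted p = 0.0194) at a low level of 0.848 ± 0.299 CPM in 2w Wt. Without Tg7 2w replicate 1 its 2w value was 0.98 (adjusted p = 0.198), and the 2w call held in 5 and the 12w call in 9 of 12 fits without 1 library. B2m, the light chain of MHC class I, rose at 2w (log2 fold change 0.97, adjusted p = 0.0256) and the heavy chain H2-D1 at 12w (0.55, adjusted p = 0.00268). B2m did not pass the test at 12w, and H2-D1 did not pass it at 2w. The call for B2m held in 8 of 12 fits without 1 library, and those that lost it left out replicate 2 or 3 of Wt or replicate 1 or 2 of Tg7 at 2w.

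Of 23 genes known to respond to interferon, 3 rose and none fell at 2w, and 6 rose and 1 fell (Rsad2) at 12w. Of all tested genes, 6.07% rose at 2w, and 12.5% rose and 11.2% fell at 12w. At 2w, 16 of the 23 were positive and 7 negative, with a median log2 fold change of 0.44 and a lowest of −1.03. At 12w, 17 were positive and 6 negative, with a median of 0.37 and a lowest of −1.53. The guanylate-binding protein Gbp2 rose from 11.5 ± 2.55 to 22.9 ± 4.96 CPM at 2w (log2 fold change 1.0005, adjusted p = 0.00402) and from 9.36 ± 1.005 to 39.0 ± 1.02 CPM at 12w (2.06, adjusted p = 7.73e-06). Gbp3 rose by 0.80 and 1.68 on the log2 scale, and Ifit3 rose by 1.99 at 2w. The 2w call for Gbp3 was lost with no filter and with the replicate block, and held in 4 of 12 fits without 1 library, those without Tg7 12w replicate 1 or a Wt 12w library. At 12w Irf1, a transcription factor of the interferon response, rose by 0.75 (adjusted p = 0.00117) and the GTPase Igtp by 0.77 (adjusted p = 0.00359), while at 2w Usp18 had −0.66 (adjusted p = 0.0523).

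Promoters of 39 of the 47 genes were found in RefSeq (GRCm38.p6), each 250 bases before to 50 bases after the start. Both strands were searched for TGACNNNGC, the core of the element bound by Nfe2l1 and Nfe2l2, for TTCNNNGAA, the form of element bound by STAT dimers, and for GAAA, any 2 bases and GAAA, the form of an interferon-stimulated response element. The first was in 6 members (Psmb5, Psmb6, Psmc6, Psmd9, Psmd12 and Psme4) and in 12.4% of 32851 promoters, the second in 3 (Psmb8, Psmd2 and Psmg1) and 8.30%, and the third in 5 (Psmb3, Psmd4, Psmd9, Psme1 and Psmg4) and 3.44%. Windows are shown for the subunit that rose and its counterpart, and for 2 genes that fell, with the match in capitals.
Psmb8: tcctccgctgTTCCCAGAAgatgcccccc
Psmb5: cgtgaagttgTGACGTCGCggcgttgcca
Psmd12: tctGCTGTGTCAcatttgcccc
Psme4: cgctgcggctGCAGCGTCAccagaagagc
They lie in GRCm38.p6 at chr17:34198088-34198116 on the plus strand (Psmb8, 97 bases before the start), chr14:54618024-54618052 on the minus strand (Psmb5, 47 bases before), chr11:107479278-107479299 on the plus strand (Psmd12, 247 bases before) and chr11:30771758-30771786 on the plus strand (Psme4, 7 bases before). In Psmd12 and Psme4 the match is on the strand opposite to the gene. The matches are letters in these windows and do not show that a factor binds there.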

How the data were processed

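The authors trimmed paired-end reads with Trimmomatic, aligned them to mm9 with TopHat2 2.0.11 and counted them per Ensembl gene with featureCounts, with no version or strand setting stated. The deposited file holds these raw counts, and every column was used. Genes were filtered with filterByExpr (minimum count 10, minimum total 15), scaled by TMM and fitted as 4 group means with the edgeR 4.0.16 quasi-likelihood test in R 4.3.3, with Benjamini-Hochberg adjustment over 15961 genes and a threshold of 0.05. The SE is the absolute log2 fold change over the square root of F. Ratios used a prior count of 0.5 and exact permutation tests (Python 3.11.15). The fit was run on simulated counts with planted changes, each larger than that of any proteasome gene between Tg7 and Wt in the main fit. That run does not show how well smaller changes are called. DESeq2 1.42.0, other scalings and filters, a replicate block and each library left out were alternatives. A group left with 2 libraries borrows the spread of the rest. Positions and 3′ UTRs are from the mm9 annotation, and seeds and promoters from RefSeq. The authors' own test was DESeq2.

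The members and gene lists were chosen with earlier results of these data known. Named genes were the cutting subunits, immunoproteasome subunits, activators and inhibitor, every member called between Tg7 and Wt, the 3 called members per direction of largest change with age, the highest and lowest member of each role, and the 4 genes of lowest adjusted p per contrast in each list of partners, antigen presentation and interferon response; other genes named, such as Psmd5, Psmc3ip, Psme2b-ps, Nfe2l1, AI314180, Rsad2, Lyz2, Csf1r and Cd3e, were picked after their values were seen. Depth limits precision: Psmb8 had 164 to 774 counts per library. Genes that share exons on either strand are uncertain, since the handling of such reads is not stated. The planned ratio of Psmb9 over Psmb6 was not computed because Psmb9 had no counts.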

Additional observations from a re-analysis of the deposited data

How the results depend on the processing

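Scaling by library size alone, which moves the median over all genes from 0.03 to 0.19 at 2w and from −0.01 to 0.43 at 12w, had the widest effect. Under it, 1 member rose and 0 fell at 2w (10.5% and 1.99% of all tested genes), 20 rose and 0 fell at 12w (32.6% and 2.26%), 7 fell with age in Wt (23.8%) and 0 rose with age in Tg7 (4.04%). Psmb5 and Psmb6 turned to 0.0501 and 0.0357 at 2w, and Psmf1 and Ubqln1 to 0.0289 and 0.0348 at 12w. At 2w, 1 member also rose under the filter of 50 counts in 3 libraries, DESeq2, no filter and upper-quartile factors (Psmb8) and with each age alone (Psmb10), while 3 fell under no filter. Upper-quartile factors gave 2 rising at 12w, DESeq2 gave 1 rising with age in Wt, and no filter gave 1 rising with age in Tg7. Same-numbered libraries did not deviate together (correlations −0.0214, −0.167 and −0.0343 at 2w, −0.0894 and −0.0112 at 12w), so the numbers were not taken as pairs. With the replicate block, 3 fell at 2w, Psmb10, Psmb6 and Psme1 turned to −0.0012, −0.0044 and −0.11 at 12w, and the 12w contrast rested on replicates 1 and 2; the block within age could not be fitted for the contrasts between ages, which used a block within genotype, added after seeing the data like the fit without the 20 most abundant genes. Leaving out 1 library gave 0 to 1 rising and 2 to 10 falling at 2w, 1 to 3 rising and 2 to 6 falling at 12w, 0 to 3 rising and 0 to 1 falling with age in Wt, 0 to 7 rising with age in Tg7, and Psmb10 over Psmb7 at 0.0766 to 0.2374. Fits without 1 library that turned a direction gave Psmb7 at −0.0329 to 0.0609 at 2w (negative without Wt 2w replicate 3) and, at 12w, Psmb10 at −0.1037 to 0.2856 (negative without Wt 12w replicate 1 or 4), Psmb6 at −0.0339 to 0.2207 and Psme1 at −0.1236 to 0.2325 (both negative without Wt 12w replicate 4). With the longest transcript in place of merged exons, the 12w Wt levels of Psmb6, Psmb7 and Psmb8 came to 89.1, 79.7 and 11.1 CPM per kb. The causes were not tested. No alternative changed the count of 0 for the difference between the ages, and Psmb8 at 12w passed the test in all alternatives run.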
